A study of Mus musculus with 5 samples.

Results

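The 6 long noncoding RNAs described here are known for their nuclear location or for lying beside developmental genes: Malat1, Neat1, Meg3, Miat, Mir100hg and Otx2os1. Their UMI counts (unique molecular identifiers, 1 per captured RNA molecule) were followed through the sorted cells of the mouse retina. They were chosen by name, as 6 of the 33696 genes counted, because their levels differed between cell types and with the share of ribosomal protein messages in Müller glia (MG), so those levels are given below as descriptions without a test. The counts come from whole cells and from the 3′ ends of polyadenylated RNA, and they hold no measure of where in the cell an RNA lay, so the word nuclear rests on textbook knowledge of these RNAs and was not measured. Of the other 5, Neat1, Meg3 and Mir100hg were high in MG rich in Malat1 and low in MG poor in it, classes that were cut on Malat1 itself. Otx2os1 did not share this pattern, and Miat was at or near 0 UMIs in all cell types.

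The study tested what becomes of MG, the radial glia that span the retina, after a burst of YAP activity. Mice of the genotype Glast-CreERT2; Rosa26-Ai65 on C57BL/6J, 12 to 20 weeks old and of both sexes pooled, received an AAV of the ShH10 capsid with a GFAP promoter that drove either the fluorescent protein mKate2, as control, or Yap5SA, a form of YAP that escapes Hippo inhibition. At 56 days after injection, tdTomato+ cells were sorted and sequenced with the droplet-based 10x 3′ kit, from 16 pooled retinas for mKate2 and 21 for Yap5SA. All mice carried the tamoxifen-inducible Cre, driven by the Glast promoter, and were given tamoxifen. Both AAVs also carried the FlpO recombinase, and the reporter needs Cre and FlpO together, so tdTomato marks cells that received an AAV and their progeny. An uninjected group was not analysed here.

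Background on the 6 RNAs helps in reading their levels. Malat1 is an abundant RNA of nuclear speckles, the stores of splicing factors. Its neighbour Neat1 builds paraspeckles, nuclear bodies that hold proteins such as Sfpq and Nono, and its output is known to rise in stressed cells. Meg3 is a maternally expressed RNA of the imprinted Dlk1-Dio3 region and is followed on the same strand by Rian and Mirg. Mir100hg is the host of the microRNAs miR-100, let-7a-2 and miR-125b-1. Otx2os1 is read opposite to Otx2, the homeobox factor of photoreceptors and bipolar cells. Miat, also called Gomafu, was described in neurons of the retina and binds splicing factors such as Qki.

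On the GRCm39 assembly, Malat1 (ENSMUSG00000092341) lies at chr19:5845717-5853602 and Neat1 (ENSMUSG00000092274) at chr19:5874736-5897132, both on the minus strand. Their 3′ ends are shown because a 3′ poly(A) method reads them in an unusual way: the mature ends of Malat1 and of the long Neat1 form carry U-rich motifs that fold onto a genome-coded A-rich end into a triple helix, in place of an added poly(A) tail. The windows are 120 bases long. The Malat1 window is chr19:5846010-5846129 in the 7886-base transcript Malat1-201, with 293 annotated bases after it, and the Neat1 window is chr19:5874736-5874855, the last bases of the 22397-base transcript Neat1-201. Capitals mark the runs of at least 10 bases that both windows share, which were 13, 16 and 11 bases long.
Malat1 3′ end: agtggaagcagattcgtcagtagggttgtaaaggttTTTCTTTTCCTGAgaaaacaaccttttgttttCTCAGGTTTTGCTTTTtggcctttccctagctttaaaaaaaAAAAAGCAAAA
Neat1 3′ end: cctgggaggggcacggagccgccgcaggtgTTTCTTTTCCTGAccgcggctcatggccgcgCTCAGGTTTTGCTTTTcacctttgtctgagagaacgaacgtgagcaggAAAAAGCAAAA
The longest run of A in the window was 12 bases in Malat1 and 5 in Neat1. How well this chemistry captures either RNA cannot be read from the counts, so the levels of Malat1 and Neat1 were not compared with each other.

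Mir100hg (ENSMUSG00000074415) spans 389970 bases at chr9:41238321-41628290 on the plus strand of GRCm39, with Mir100 at chr9:41442721-41442800, Mirlet7a-2 at chr9:41448012-41448107 and Mir125b-1 at chr9:41493222-41493298 inside it. The mature microRNAs of the host are shown to make plain what the transcript carries; they are RefSeq sequences of the GRCm38.p6 annotation, and capitals mark the seed, bases 2 to 8.
miR-100-5p: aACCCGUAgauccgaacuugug
miR-125b-5p: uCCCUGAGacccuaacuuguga
let-7a-5p: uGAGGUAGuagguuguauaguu
The seeds of these 3 microRNAs differ from each other. The kit does not count mature microRNAs, so values below are for the host transcript.

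Meg3 (ENSMUSG00000021268) spans 31289 bases at chr12:109506877-109538165 on the plus strand, with Rian downstream at chr12:109570242-109628150. Its promoter is shown because Meg3 was higher in cells with many immediate-early transcripts, as described later. The RefSeq window, 250 bases before to 50 bases after a start site, matched GRCm39 once, at chr12:109506629-109506928, and capitals mark a TGACGTCA motif, the element named for its response to cAMP, whose first base lies at -57 from the start site.
Meg3 promoter: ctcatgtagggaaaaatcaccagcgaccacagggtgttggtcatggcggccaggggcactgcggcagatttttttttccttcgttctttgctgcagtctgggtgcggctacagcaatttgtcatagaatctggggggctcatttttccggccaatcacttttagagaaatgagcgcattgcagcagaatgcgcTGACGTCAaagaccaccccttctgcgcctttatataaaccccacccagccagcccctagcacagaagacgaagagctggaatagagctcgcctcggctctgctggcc
The motif TGACGTCA, searched on both strands, was present in 588 of 32851 promoters of this length (1.79%) and in 1 of the 2 Meg3 promoters. The AP-1 motif TGANTCA was present in 2565 promoters (7.81%) and in neither Meg3 window. Such a match is a description of letters in a window. The remaining genes are Miat (ENSMUSG00000097767) at chr5:112361094-112377261 on the minus strand and Otx2os1 (ENSMUSG00000098682) at chr14:48906165-49109111 on the plus strand. Otx2os1 overlaps Otx2, which is on the minus strand at chr14:48894099-48911276, over 5112 bases; the 10x 3′ library keeps the strand of the RNA.

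Of 5 deposited libraries, Yap5SA 2 shared 1361 of its 1364 cell barcodes with Yap5SA 1, against at most 7 for any other pair, and was left out as a second library of the same cells. The remaining 4 captures held 1407 to 7729 cells and 13132765 to 50938304 UMIs each, and each is a pool of animals, so every p-value below measures only the spread between captures. The file headers name Cell Ranger 8.0.0 for mKate2 1 and Yap5SA 1 and 9.0.1 for mKate2 2 and Yap5SA 3, a processing batch that holds one capture of each AAV. Cells with at least 0.5% of UMIs from the MG markers Glul, Rlbp1, Slc1a3, Clu and Aqp4 were called MG, and there were 1498 in mKate2 1, 2898 in mKate2 2, 803 in Yap5SA 1 and 1341 in Yap5SA 3. They were 89.4%, 51.4%, 71.3% and 58.1% of the cells kept, although all libraries were labelled as purified MG, and 82, 152, 71 and 98 cells lay near the gate, between 0.4% and 0.6%. MG genes that the gate did not use were present, such as Dkk3 at 1387 UMIs per 1000000 of the summed group (CPM) in mKate2 1, 1479 in mKate2 2, 1150 in Yap5SA 1 and 1624 in Yap5SA 3. The libraries also held other cells, called by gates that were set after the data were seen: rods, cones, bipolar and amacrine cells in mKate2 2 and Yap5SA 3, microglia and macrophages in all 4 captures, and 24 endothelial cells or pericytes in mKate2 2. Rod transcripts reached the MG sums too, with 7 rod markers summing to 89.9, 739, 19.6 and 1495 CPM. Values for the 4 captures are given throughout in the order mKate2 1, mKate2 2, Yap5SA 1, Yap5SA 3, and values for a pair of captures in the order mKate2 2, Yap5SA 3.

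Malat1 was present in every cell type. In the summed MG its level was 88532, 30148, 78101 and 36902 CPM, so both captures of the 8.0.0 batch lay above both captures of the 9.0.1 batch, with a mean of 58421 ± 29191 CPM (SD, n = 4). Amacrine cells had 35103 and 33585 CPM, cones 35040 and 37851 CPM, rods 23091 and 28414 CPM and bipolar cells 26494 and 25858 CPM. The ranges of amacrine cells and cones overlapped, as did those of rods and bipolar cells, and the MG range covered cones, amacrine cells and the 34549 CPM of the endothelial cells and pericytes. Microglia and macrophages were lowest within every capture, at 13346, 6158, 20443 and 10722 CPM. With each cell thinned to 1000 UMIs, so that deep cells had no more weight than shallow ones, MG had 74354, 7727, 71218 and 9799 CPM. In the captures that held neurons MG then lay below all of them, with 20514 and 21928 CPM in rods, 25309 and 24873 CPM in bipolar cells, 31361 and 30083 CPM in cones and 33292 and 27048 CPM in amacrine cells, and microglia were still lowest at 11333, 2054, 19578 and 5328 CPM.

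In summed counts Neat1 was higher in microglia and macrophages, the immune cells of the retina, than in MG or neurons. Their sums held 107, 74.8, 293 and 177 CPM, from 38, 398, 546 and 93 UMIs. In MG the level was 18.9, 70.5, 55.7 and 40.0 CPM, below microglia in each capture, although in mKate2 2 the values of 70.5 and 74.8 lay close together. The 24 endothelial cells or pericytes of mKate2 2 had 128 CPM, above the microglia of that capture. Neurons were lowest in each of these captures, with 6.00 and 4.19 CPM in rods, 14.5 and 6.08 CPM in cones, 6.38 and 1.81 CPM in bipolar cells and 2.00 and 2.63 CPM in amacrine cells. The range of bipolar cells overlapped those of the other neurons, and amacrine cells lay below rods and cones. This order did not hold throughout when each cell was thinned to 1000 UMIs. Microglia then had 0, 13.3, 296 and 78.1 CPM and MG 14.0, 24.5, 43.6 and 15.7 CPM. Microglia were thus lower in mKate2 2 and higher in both Yap5SA captures. The 0 of mKate2 1 came from 24 cells, too few at this depth to show a level below that of MG. The thinned levels of neurons rested on few UMIs, with 20.8 CPM in cones and 18.2 CPM in bipolar cells of Yap5SA 3, each from 1 UMI and above the MG of that capture.

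Meg3 was highest in the inner neurons. Amacrine cells, the inhibitory interneurons, had 3979 and 2881 CPM and bipolar cells, which carry the photoreceptor signal inwards, 1267 and 1210 CPM. With each cell thinned to 1000 UMIs, 82.3% and 76.2% of amacrine cells and 58.5% and 60.0% of bipolar cells had a Meg3 UMI, against 0.385% and 0.204% of rods, whose median depths before thinning were 9448.5 and 4038 UMIs and those of amacrine cells 26340 and 12063. MG had 171, 165, 143 and 206 CPM, a mean of 171 ± 26.1 CPM (SD, n = 4). Rods had 4.69 and 8.80 CPM, and cones were split, with 236 CPM in mKate2 2, where only 11.1% of the 36 cones had a Meg3 UMI, and 1.52 CPM in Yap5SA 3. Microglia held 2.81, 48.3, 0.537 and 13.3 CPM, and the endothelial cells and pericytes 46.2 CPM. Rian, the next RNA of the imprinted strand, followed the same order with 312 and 205 CPM in amacrine cells, 139 and 81.5 CPM in bipolar cells and 28.6, 32.4, 23.6 and 18.4 CPM in MG.

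Mir100hg was highest in MG. Its level there was 374, 232, 499 and 300 CPM, a mean of 351 ± 114 CPM (SD, n = 4), from 2351 to 4802 UMIs per capture. The other types were lower. Amacrine cells had 53.2 and 15.8 CPM, the endothelial cells and pericytes 25.7 CPM, bipolar cells 10.5 and 6.34 CPM and microglia 2.81, 8.65, 11.3 and 3.80 CPM. Rods had 1.50 and 3.77 CPM and cones 1.61 and 0 CPM. The range of microglia overlapped those of bipolar cells and rods, the ranges of rods and cones overlapped each other, and bipolar cells lay above both. With each cell thinned to 1000 UMIs MG were still highest, at 274, 80.1, 443 and 133 CPM, but by a smaller margin, with 31.3 and 47.6 CPM in amacrine cells and 41.7 CPM in the endothelial cells and pericytes, the latter values from 1 to 3 UMIs. Mir99ahg, the host of a related microRNA cluster on chromosome 16, was also abundant in MG, at 934, 803, 1227 and 1107 CPM.

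Otx2os1 was highest in the cells that use Otx2. Bipolar cells held 2357 and 2730 CPM, cones 610 and 805 CPM and rods 550 and 472 CPM, and Otx2 itself had 350 and 406 CPM in bipolar cells, 158 and 122 CPM in cones and 235 and 244 CPM in rods. Cones lay above rods in both captures by a margin of the size of the spread between captures. Thinned to 1000 UMIs, 75.2% and 78.2% of bipolar cells had an Otx2os1 UMI, against 1.86% and 1.57% of MG and 1.55% and 0% of microglia and macrophages of the same captures, a type that should lack it, so the share in MG of mKate2 2 is near background for that capture. Median depths before thinning were 22612 and 19775 UMIs in bipolar cells, 2918.5 and 2920 in MG and 3943 and 5352.5 in microglia. Amacrine cells had 28.8 and 47.4 CPM, a range that MG and microglia overlapped, the endothelial cells and pericytes 0 CPM, and microglia 0, 32.5, 0.537 and 9.51 CPM. In MG the level was 2.19, 39.6, 0.623 and 26.8 CPM, so it was low in the captures with at most 4 cells in the rod gate and higher in those that held rods and bipolar cells. The rod marker sum in MG ran the same way, 89.9, 739, 19.6 and 1495 CPM, and so did that of microglia, 14.0, 105, 19.9 and 124 CPM, while 8 bipolar markers summed to 22.1, 37.0, 18.0 and 29.0 CPM in MG. In Yap5SA 3, 59 cells of the MG gate with pigment epithelium markers had 110 CPM of Otx2os1 and the other MG 21.7 CPM, whereas in mKate2 2 the 22 such cells had 33.7 CPM and the other MG 39.7 CPM. The part of free RNA and of these cells in the MG level was not tested.

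Miat was barely detected. In MG it was counted 0, 0, 22 and 2 times, and 0 UMIs allows up to 0.253 CPM in mKate2 1 and 0.161 CPM in mKate2 2, by the limit of 3 counts. Amacrine cells held 3 UMIs and 1 UMI (1.20 and 2.63 CPM), bipolar cells 1 UMI in mKate2 2, and rods, cones, microglia and endothelial cells none. All 22 UMIs of the Yap5SA 1 MG lay in 0.747% of that capture's MG, so a few cells made up the sum.

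**Figure D1:**
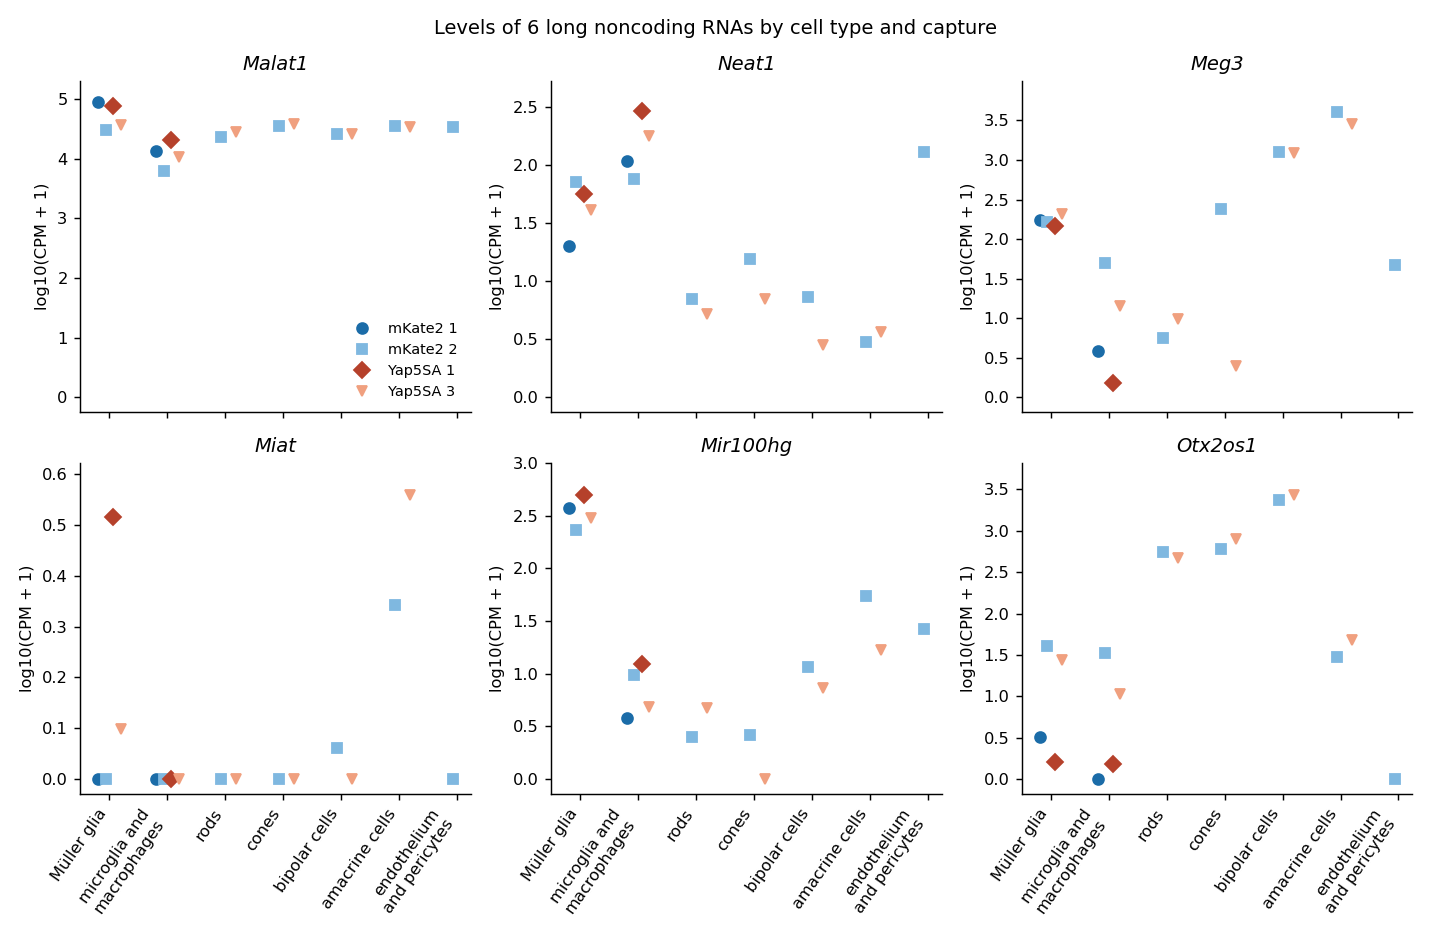
Levels of the 6 RNAs by cell type, as log10(CPM + 1) of UMI sums on the vertical axis, one panel per RNA; each point is 1 capture and only types with at least 20 cells in that capture are drawn. Neat1 is high in microglia and macrophages and in the 1 endothelial sum, Meg3 is highest in amacrine cells, Mir100hg in MG and Otx2os1 in bipolar cells, where it reaches 2357 and 2730 CPM, and Miat stays at or near 0.

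The contrast with other genes gives these levels a scale. A gene was counted as different in a type where its CPM was at least 2-fold above or below that of MG in each capture that held the type. Of all genes tested, 18.8% were so higher and 22.9% lower in rods, 20.4% and 19.8% in cones, 21.3% and 21.2% in bipolar cells, 22.4% and 18.3% in amacrine cells, 12.9% and 25.3% in microglia and 29.1% and 19.9% in the 1 capture with endothelial cells and pericytes. Among the members 20 of 29 pairs of a member and a type passed. As the members were picked on these levels, nothing further is read from that count.

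Within the MG gate Malat1 did not vary smoothly. The cells fell into a group with under 0.2% of UMIs from Malat1, called Malat1-poor here, and a group above 1%, called Malat1-rich, with 146, 145, 37 and 61 cells between these limits. The limits were chosen after the distribution was seen, and a class of this kind is a range and not a cell type. Malat1-poor cells made up 18.9%, 82.2%, 19.2% and 81.1% of MG, so the 8.0.0 batch was mostly rich and the 9.0.1 batch mostly poor in both AAV groups. The median share of Malat1 per cell was accordingly 7.97%, 0.0463%, 7.46% and 0.0460% of UMIs. Cells with at least 5% of UMIs from this single gene were 63.7%, 8.14%, 72.0% and 10.8% of MG.

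**Figure D2:**
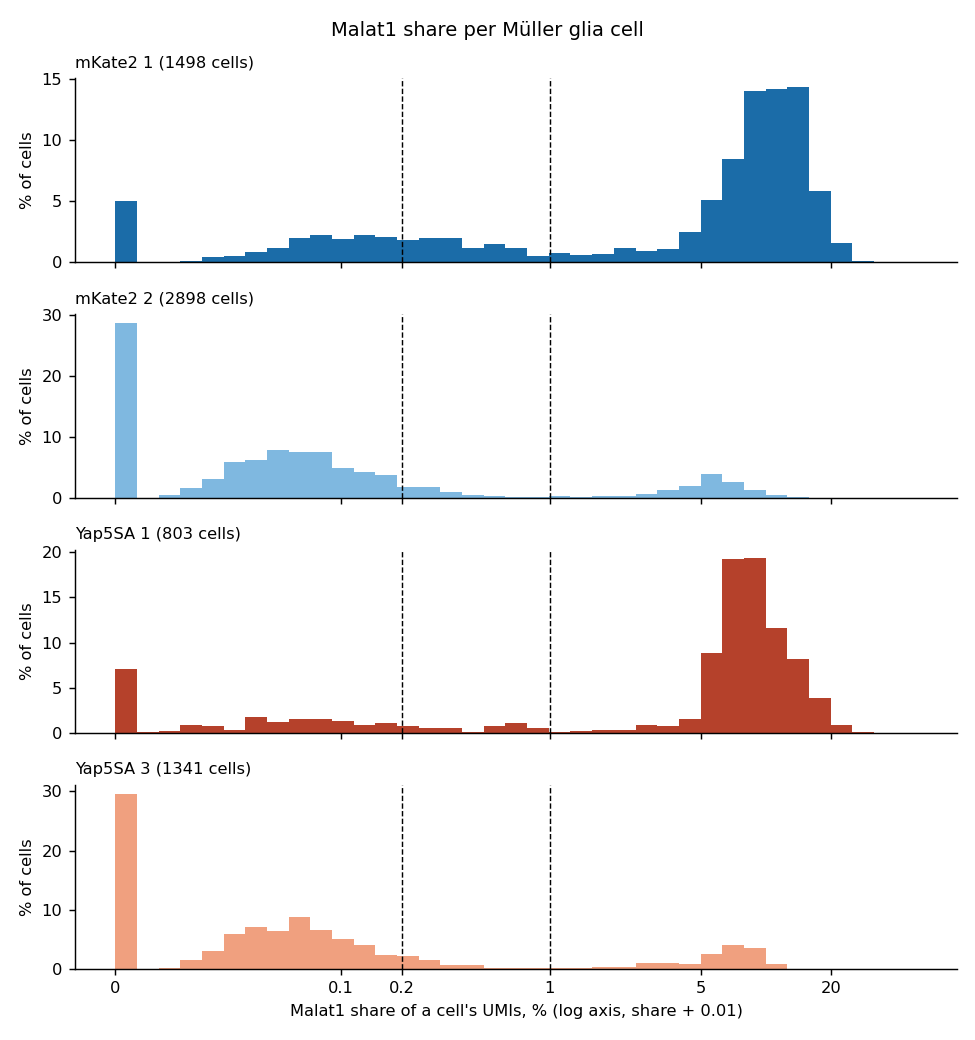
Share of UMIs from Malat1 per MG cell, on a log axis after adding 0.01 percentage points, as a histogram of cells for each capture; dashed lines stand at 0.2% and 1%. Each capture has a low and a high peak, and the low peak holds 18.9% and 19.2% of the cells in mKate2 1 and Yap5SA 1 but 82.2% and 81.1% in mKate2 2 and Yap5SA 3.

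The Malat1-rich and Malat1-poor cells differed in depth and in their other RNA. Median UMIs per cell were 8987, 22260, 14076 and 22130 in rich cells and 2035, 2686, 2954 and 2642 in poor ones. Ribosomal protein messages took 3.31%, 1.59%, 4.27% and 1.02% of UMIs in rich cells and 13.1%, 11.3%, 15.3% and 9.08% in poor cells, without overlap. Mitochondrial messages took 2.79%, 1.40%, 2.75% and 0.616% in rich cells and 2.77%, 7.89%, 1.04% and 6.26% in poor ones, so poor cells were higher only in the 9.0.1 batch and close or lower in the 8.0.0 batch. Both classes met the MG gate, with the 5 markers summing to 18945, 14608, 17584 and 14974 CPM in rich and 11474, 21735, 11224 and 17418 CPM in poor cells. Among them Glul, the glutamine synthetase of glia, was somewhat lower in rich cells at 4917, 4700, 3457 and 6614 CPM against 6518, 6729, 5152 and 8140 CPM. Slc1a3, the glutamate transporter that gives Glast its name, was higher in rich cells at 1601, 1356, 1386 and 1746 CPM against 310, 586, 250 and 617 CPM. Markers of endothelial cells and pericytes summed to 815, 856, 542 and 1276 CPM in rich and 150, 262, 57.1 and 348 CPM in poor cells, and rod markers to 67.8, 957, 19.9 and 1066 CPM against 158, 476, 13.0 and 1942 CPM. The part of these markers in the split was not tested. The study excluded its larger cluster of cells, with lower UMI counts and more ribosomal transcripts, for signs of stress from dissociation. Whether the Malat1-poor cells belong to that cluster was not tested, and they are kept in the MG sums here.

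Neat1, Meg3 and Mir100hg, none of which defined the classes, were higher in the Malat1-rich class in all 4 captures. Neat1 had 20.8, 127, 60.2 and 72.5 CPM in rich cells and 1.34, 2.58, 1.63 and 2.58 CPM in poor ones. Their ratio was 15.5, 49.1, 36.9 and 28.2, and since the poor cells of mKate2 1 and Yap5SA 1 gave few UMIs, its 95% counting intervals ran from 2.75 to 614 and from 6.60 to 1461 there. Meg3 had 188, 293, 155 and 380 CPM in rich and 6.71, 10.7, 1.63 and 5.15 CPM in poor cells, ratios of 28.0, 27.4, 95.1 and 73.8. Those of mKate2 1 and Yap5SA 1 rested on 5 UMIs and 1 UMI in poor cells, with intervals of 12.0 to 86.2 and 17.0 to 3759. Mir100hg had 410, 405, 539 and 547 CPM in rich and 20.1, 23.5, 21.2 and 18.0 CPM in poor cells, ratios of 20.4, 17.2, 25.4 and 30.3, which lay close together across batches and AAV groups. With cells thinned to 1000 UMIs, so that depth was equal, 29.7%, 32.9%, 41.3% and 44.6% of rich cells had a Mir100hg UMI against 2.12%, 2.39%, 1.30% and 2.58% of poor cells. Meg3 was found in 14.7%, 20.5%, 10.1% and 18.1% of thinned rich cells and in 0.353%, 1.30%, 0% and 0.552% of poor ones. Neat1 was found in fewer, 1.96%, 13.5%, 4.90% and 9.84% of thinned rich cells and 0%, 0.462%, 0.649% and 0% of poor ones. In mKate2 1 these were 21 of 1069 rich cells.

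Otx2os1 did not have such ratios. It had 2.22, 59.6, 0.338 and 24.2 CPM in rich and 2.68, 13.0, 3.26 and 23.8 CPM in poor cells, with ratios of 0.829, 4.58, 0.104 and 1.02. The ratios of mKate2 1 and Yap5SA 1 each rested on 2 UMIs in poor cells, and their 95% counting intervals of 0.206 to 7.24 and 0.0119 to 1.24 include equal levels, as does that of Yap5SA 3 (0.754 to 1.38). The interval of mKate2 2, 3.72 to 5.68, lay above equal levels. At the equal depth used above, Otx2os1 was found in 0.281%, 2.43%, 0% and 1.04% of rich cells. In poor cells it was found in 0.353%, 1.64%, 0% and 1.38%. The rich cells of mKate2 2 were uneven. Ranked by immediate-early share, as described later, their lowest tertile held 352 UMIs and their highest 3, with 118 cells each. The interval covers counting error only and not this unevenness between cells. Other RNAs of the list of nuclear long noncoding RNAs that were higher in the rich class were Lncpint, at 160, 540, 177 and 463 CPM in rich against 6.71, 7.25, 6.52 and 4.01 CPM in poor cells, and Kcnq1ot1, an imprinted antisense RNA, at 79.6, 276, 214 and 254 CPM against 4.03, 6.51, 1.63 and 4.01 CPM. The opposite held for Gas5, a host of small nucleolar RNAs whose spliced product is cytoplasmic, at 326, 294, 417 and 172 CPM in rich against 1026, 1031, 1137 and 664 CPM in poor cells. These classes were cut on Malat1 and the members were chosen together, so the ratios are descriptions. The share of all genes higher in the rich class is not given, so the pattern is not shown to be particular to the members.

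**Figure D3:**
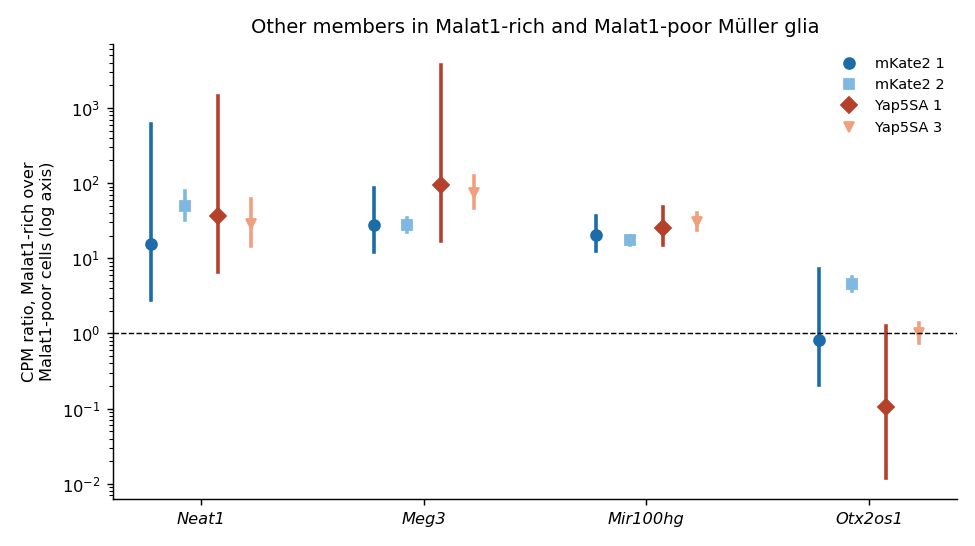
Ratio of CPM in Malat1-rich over Malat1-poor MG, on a log axis, for the 4 other members with a measurable level; points are captures, vertical lines are 95% counting intervals and the dashed line marks equal levels. The ratios of Neat1, Meg3 and Mir100hg lie above 15 in all 4 captures, those of Neat1 in mKate2 1 and of Neat1 and Meg3 in Yap5SA 1 from 1 UMI in poor cells, with intervals that reach down to 2.75. By contrast, the intervals of Otx2os1 include equal levels in every capture but mKate2 2 (4.58), and its lowest ratio of 0.104 comes from 3 and 2 UMIs.

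Malat1-poor cells were also found among other types. They made up 28.3% and 46.8% of rods, 19.4% and 25.0% of cones, 3.86% and 1.82% of bipolar cells and 3.13% and 4.76% of amacrine cells. Among microglia and macrophages they were 16.7%, 88.1%, 20.7% and 75.0%, the same division by batch as in MG. The inner neurons of the 9.0.1 batch were thus almost all rich in Malat1 while the MG and microglia of the same captures were mostly poor. The 2 processing versions differ in their captures as well as in software, and these cannot be told apart.

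Ordering the MG of each capture by their share of ribosomal protein messages gave the same picture, in the measure by which the members had been chosen. From the lowest to the highest tertile, the 3 equal groups of cells by that share, Malat1 went from 106048 to 27842, from 44870 to 549, from 104860 to 46249 and from 53684 to 582 CPM. The lowest tertile was higher by 3.81-fold and 2.27-fold in mKate2 1 and Yap5SA 1 and 81.7-fold and 92.2-fold in mKate2 2 and Yap5SA 3. Neat1 went from 21.5 to 10.5, from 105 to 1.79, from 88.7 to 30.8 and from 58.0 to 0 CPM, the last at least 19.1-fold lower by the limit of 3 counts. Mir100hg went from 465 to 119, from 338 to 32.1, from 672 to 271 and from 429 to 30.4 CPM, lower by 3.90-fold, 10.5-fold, 2.48-fold and 14.1-fold. Meg3 went from 194 to 54.7, from 241 to 13.6, from 143 to 144 and from 297 to 11.1 CPM, so it was level in Yap5SA 1. This did not hold with depth made more equal. The log2 ratio of Meg3 in Yap5SA 1 was 1.27 with cells thinned to 1000 UMIs and 5.36 with cells of 2000 to 8000 UMIs. It was -0.13 with ribosomal and mitochondrial genes left out of the totals and -0.06 with an MG gate of 1%. Otx2os1 had 2.49 and 2.91, 52.2 and 13.6, 0 and 1.45 and 32.3 and 18.2 CPM in the lowest and the highest tertile.

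**Figure D4:**
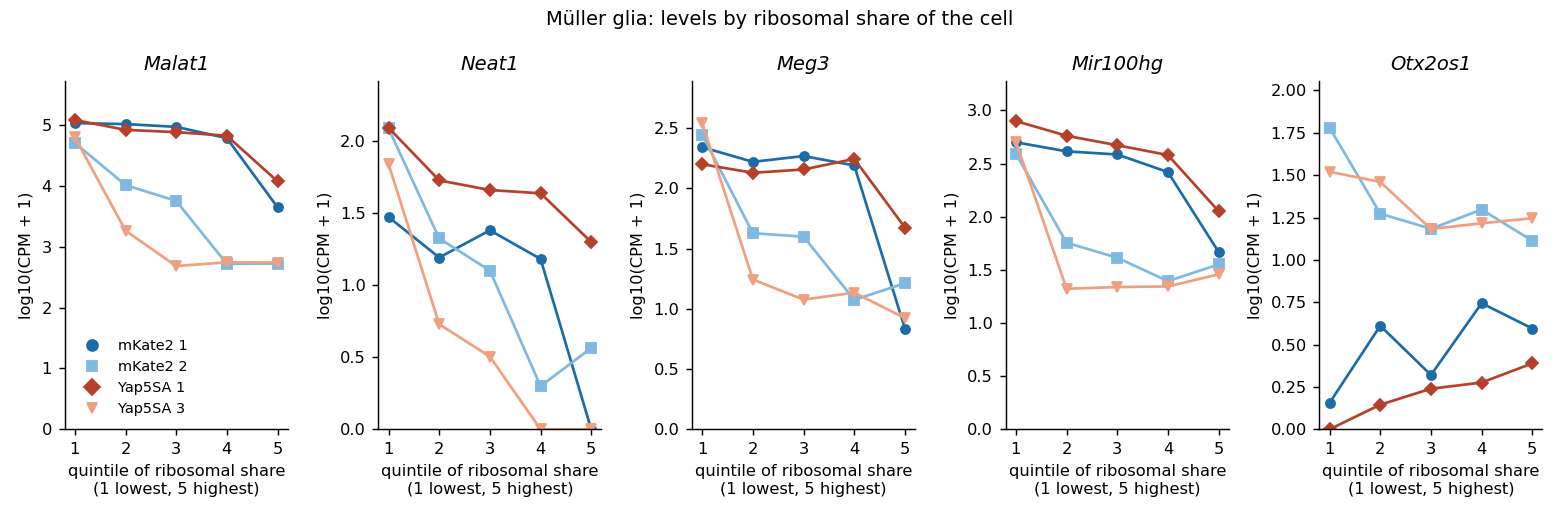
Levels of the members in MG split into quintiles by ribosomal share within each capture, from the lowest on the left to the highest on the right, as log10(CPM + 1); each line is 1 capture, and Miat is not drawn. The lines of mKate2 2 and Yap5SA 3 drop furthest for Malat1, which between tertiles differed 81.7-fold and 92.2-fold there, and the Otx2os1 lines show no common slope.

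Of the members, 4 passed the filter of a mean of at least 20 CPM in MG, and Miat and Otx2os1 did not. Malat1, Neat1 and Mir100hg were at least 2-fold higher in the lowest tertile in all 4 captures, which was so for 679 of 7293 genes tested (9.31%), and 396 genes (5.43%) were lower. By the mean ratio Malat1 stood at rank 4, Neat1 at 8, Meg3 at 118 and Mir100hg at 135 of all genes. The median of all genes was itself shifted by 0.44 on the log2 scale, and by 0.21 when ribosomal and mitochondrial genes were left out of the totals. CPM are shares of a total, and a change of amount cannot be told apart from a change of share here. With those genes left out of the totals the count of members fell from 3 to 2, beside 5.88% of all genes, as Neat1 stood at 0.87 on the log2 scale in mKate2 1. The count stayed at 3 without the cells that carried rod or pigment epithelium markers. With a stricter MG gate of 1% of UMIs none of the members passed in all 4 captures, beside 0.399% of all genes, and Malat1, Neat1, Meg3 and Mir100hg each stayed at least 2-fold higher in 2 of 4.

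Genes of related function showed how far the pattern reached. Of 12 other nuclear long noncoding RNAs that could be tested, Lncpint and the X-linked Firre and Ftx were at least 2-fold higher in the lowest tertile in every capture and none was lower, with a median log2 ratio of 1.91. Of 9 snoRNA hosts and cytoplasmic long noncoding RNAs, none was higher and 4 were lower, with a median of -1.23. Of 10 nuclear speckle proteins only Pnisr was higher (median 0.75), and of 7 paraspeckle proteins none passed in either direction (median 0.26), so the messages of the proteins that bind Neat1 stayed near the median of all genes while Neat1 did not. Of 6 cytoplasmic housekeeping messages 3 were lower (median -1.36). Of 9 immediate-early and heat-shock messages, which code for proteins, none was higher in all 4 captures, but each was at least 2-fold higher in both captures of the 9.0.1 batch and in neither of the 8.0.0 batch, and their median of 1.92 was close to that of the other nuclear long noncoding RNAs. Neither of 2 Miat-binding splicing factors passed, and none of the 4 coding neighbours of Meg3 and Otx2os1 was abundant enough to test. Of 79 ribosomal protein genes 76 were lower, as the ordering itself requires.

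Among Malat1-rich cells alone the ribosomal share went with smaller differences, a split added after the data were seen. The level of Malat1 in these cells is bounded from below by their choice, so it is not compared. From the lowest to the highest tertile Mir100hg went from 489 to 359, from 617 to 283, from 713 to 415 and from 962 to 416 CPM and Neat1 from 25.8 to 20.1, from 142 to 104, from 104 to 52.0 and from 83.0 to 56.4 CPM, both lower in the highest tertile of all 4 captures. In mKate2 1 the Neat1 values rested on 75 and 76 UMIs, and their small gap was not tested. Meg3 had 199 and 187, 289 and 235, 140 and 165 and 232 and 274 CPM, in no common direction. In other types Malat1 was lower at high ribosomal share in rods, from 30774 to 9776 and from 45613 to 2027 CPM, and in microglia of mKate2 2, from 12418 to 443 CPM. In bipolar cells of mKate2 2 it was 26240 and 26825 CPM and in amacrine cells 36147 and 35638 CPM, with little difference between the tertiles.

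The immediate-early genes offered a ranking that had not been used to choose the members, although it was not independent of ribosomal share, as these genes were higher at low ribosomal share in the 9.0.1 batch. Fos, Jun and their kind, with heat-shock genes such as Hspa1a, are switched on within minutes of a stimulus and also during tissue dissociation. MG with at least 2000 UMIs were ranked within their capture by the share of UMIs from 9 such genes. The median share was 0.0828%, 0.861%, 0.122% and 0.571% in the highest tertile and 0%, 0.0248%, 0% and 0.00832% in the lowest. The step between tertiles thus differed in size between captures. In mKate2 1 and Yap5SA 1 the median cell of the lowest tertile held no UMI of these genes, and the part of depth in this was not tested. The highest tertile was compared with the lowest by edgeR's quasi-likelihood test on summed counts. The capture was the block, and the 9 genes were left out. Of 13839 genes tested, 177 rose (1.28%) and 43 fell (0.311%). Neat1 and Meg3 were among those that rose, and Malat1, Mir100hg and Otx2os1 did not pass.

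Neat1 went from 9.22 to 30.7, from 18.1 to 115, from 35.7 to 84.4 and from 19.1 to 68.2 CPM from the lowest to the highest immediate-early tertile. It rose in 4 of 4 captures and by 1.85 ± 0.21 on the log2 scale (SE, edgeR adjusted p = 0.007695). Meg3 went from 118 to 246, from 79.4 to 250, from 96.1 to 169 and from 116 to 356 CPM. It too rose in 4 of 4 captures, by 1.26 ± 0.18 (SE, edgeR adjusted p = 0.01802). Rian was the only 1 of 18 other nuclear long noncoding RNAs tested that rose. It did so in 4 of 4 captures, by 1.21 ± 0.18 (SE, edgeR adjusted p = 0.02183), from 23.4 to 38.6, from 16.3 to 48.3, from 10.9 to 28.3 and from 11.2 to 28.3 CPM. It lies downstream of Meg3 on the same strand of chromosome 12.

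Malat1 had 92131 and 85264, 17760 and 45107, 73160 and 82630 and 32613 and 53542 CPM in the lowest and the highest tertile, a log2 difference of 0.51 ± 0.39 (SE, edgeR adjusted p = 0.5253). Mir100hg differed by 0.18 ± 0.15 (edgeR adjusted p = 0.5558) and Otx2os1 by -0.13 ± 0.58 (edgeR adjusted p = 0.9271). Miat failed the filter on low counts, and its 22 UMIs in Yap5SA 1 all lay in the highest tertile. None of the 9 snoRNA hosts, 8 paraspeckle proteins, 10 speckle proteins, 2 splicing factors, 2 coding neighbours or 6 housekeeping genes tested passed, against the 1.59% of all genes that did.

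**Figure D5:**
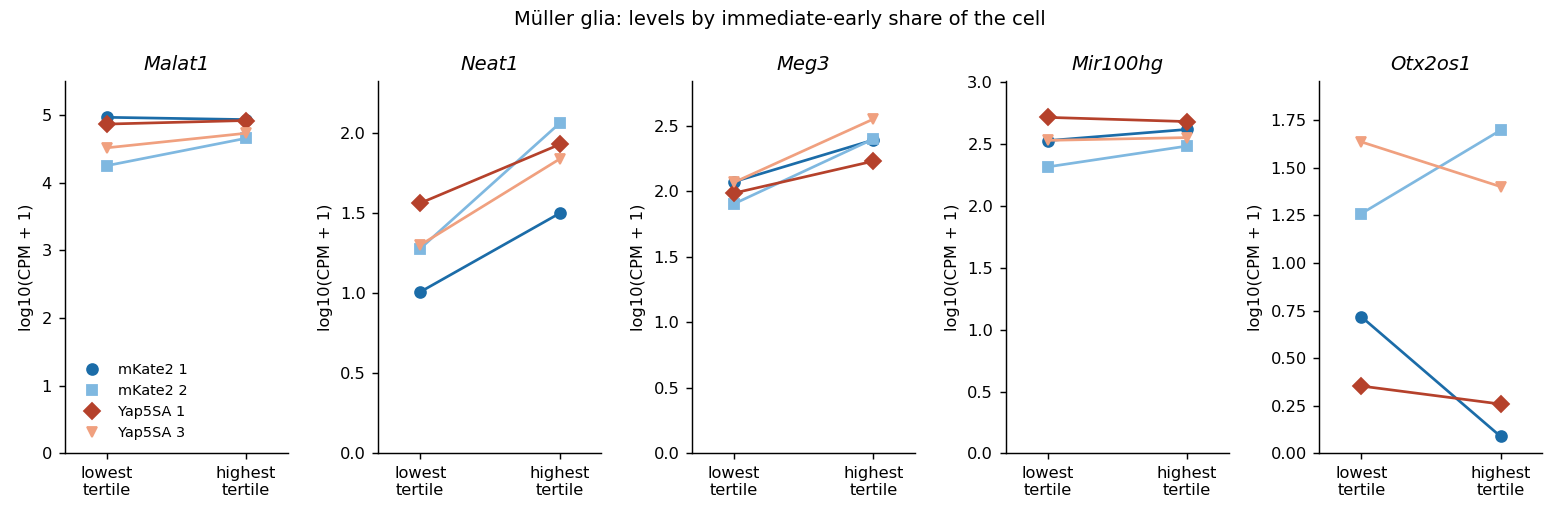
Levels in MG of the lowest and the highest tertile of immediate-early share, as log10(CPM + 1); each line joins the values of 1 capture. Neat1 and Meg3 rise in all 4 captures, by 1.85 and 1.26 on the log2 scale in the edgeR fit, while the lines of Malat1, Mir100hg and Otx2os1 do not all run in the same direction.

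The cells of the highest immediate-early tertile were also deeper, and more of them were of the Malat1-rich class. Their median depth was 8874.5, 5989.5, 15389 and 4869 UMIs against 5035, 3353.5, 8352 and 3925 in the lowest, and Malat1-rich cells made up 87.9%, 38.9%, 95.8% and 32.9% against 66.0%, 8.43%, 64.6% and 20.3%. The median ribosomal share was 3.61%, 6.44%, 4.74% and 6.95% against 3.97%, 12.6%, 5.42% and 7.63%. Among Malat1-rich cells alone, ranked among themselves, Neat1 went from 11.7 to 31.9, from 68.4 to 185, from 46.5 to 89.5 and from 35.5 to 95.9 CPM and still rose by 1.46 ± 0.17 (SE, edgeR adjusted p = 0.04259). Meg3 went from 147 to 257, from 293 to 395, from 116 to 175 and from 236 to 501 CPM there, a log2 difference of 0.88 with an edgeR adjusted p of 0.09661. With cells thinned to 2000 UMIs the differences were 1.54 for Neat1 and 1.07 for Meg3, with edgeR adjusted p of 0.01225 and 0.003559. The call for Neat1 was lost without Yap5SA 3 (1.84, edgeR adjusted p = 0.05362), and that for Meg3 without mKate2 2 (1.16, edgeR adjusted p = 0.06922) or Yap5SA 3 (1.13, edgeR adjusted p = 0.1082). Without mKate2 2 or Yap5SA 3 the count over all genes fell to 52 and 56, from 220.

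The mitochondrial share was the second ranking not used to choose the members, although in the 9.0.1 batch it was not independent of ribosomal share. The same test between the highest and the lowest tertile called none of 13241 genes (0%). Without adjustment 524 had a p under 0.05. DESeq2 called 32 genes, none of them a member. Malat1 had 86130 and 98057, 48379 and 1230, 74067 and 91965 and 59358 and 1236 CPM in the lowest and the highest tertile. It was therefore level or higher in mitochondria-rich cells of the 8.0.0 batch and far lower in those of the 9.0.1 batch, and the fitted difference was -2.40 ± 1.70 on the log2 scale (SE, edgeR adjusted p = 0.6762). Neat1 (-1.63 ± 1.00), Meg3 (-1.46 ± 0.96) and Mir100hg (-1.22 ± 0.71) had the same adjusted p of 0.6762 in edgeR and a similar spread, and Otx2os1 differed by -0.16 ± 0.50. Leaving out 1 capture moved the difference between -3.72 and -1.05 for Malat1, -2.59 and -0.64 for Neat1, -2.38 and -0.54 for Meg3 and -1.81 and -0.54 for Mir100hg, nearer 0 without a capture of the 9.0.1 batch. Among Malat1-rich cells alone it was -0.45 for Neat1, -0.33 for Meg3 and -0.22 for Mir100hg. Malat1-rich cells were 71.8%, 46.2%, 63.7% and 54.5% of the lowest tertile and 79.3%, 1.92%, 83.9% and 1.94% of the highest. The median ribosomal share went from 3.66% to 3.89%, 4.96% to 13.6%, 5.51% to 4.53% and 1.86% to 9.88% from lowest to highest tertile. Median depth went from 9159 to 5329.5, 7341.5 to 3376, 9669 to 9555.5 and 11500.5 to 3075 UMIs. The part of ribosomal share and depth in these differences was not tested.

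The comparison that the study was built for, Yap5SA against mKate2, showed no difference in the 5 members tested that exceeded the spread between captures. On counts summed over MG, with 2 captures against 2, edgeR called none of 15285 genes (0%), and only 30 had a p under 0.05 before adjustment. With DESeq2 the count of calls was 0 as well. The log2 difference of Yap5SA over mKate2 was -0.10 ± 0.97 for Malat1, -0.07 ± 0.70 for Neat1, -0.04 ± 0.30 for Meg3, 0.32 ± 0.37 for Mir100hg and -0.79 ± 1.86 for Otx2os1 (SE), each with an edgeR adjusted p of 0.9999. The standard error was smallest for Meg3 and Mir100hg, and for Malat1 and Otx2os1 it leaves room for large differences in either direction. The direction turned on single captures for each of these RNAs. With 1 capture left out in turn, the difference ran from -0.72 (without Yap5SA 1) to 0.72 (without mKate2 1) for Malat1 and from -0.76 (without mKate2 1) to 1.35 (without mKate2 2) for Neat1. It ran from -0.35 (without Yap5SA 3) to 0.22 (without Yap5SA 1) for Meg3 and from -0.07 (without Yap5SA 1) to 0.62 (without Yap5SA 3) for Mir100hg. For Otx2os1 it ran from -5.25 (without Yap5SA 3) to 2.68 (without mKate2 2). A term for the processing batch, which separates the captures by Malat1 level, gave -0.04 ± 1.65, 0.26 ± 0.71, -0.06 ± 0.24, 0.30 ± 0.26 and -1.13 ± 0.38 in the same order, the last with an unadjusted p of 0.04246 in edgeR and an adjusted p of 0.9999. Among Malat1-rich cells alone, an alternative added after the data were seen, the values were -0.23 ± 0.85 for Neat1, 0.10 ± 0.59 for Meg3, 0.37 ± 0.42 for Mir100hg and -1.47 ± 1.95 for Otx2os1. Miat failed the filter on low counts in the main fit. With no filter its difference was 6.86 ± 1.99 (SE, edgeR unadjusted p = 0.004067, adjusted p = 0.9995). That value came from 0, 0, 22 and 2 UMIs, and the 22 lay in 0.747% of the Yap5SA 1 MG. Of the 18 other nuclear long noncoding RNAs tested, none passed, and their median difference was 0.04 beside -0.03 over all genes.

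The genes whose levels ran most like each member were listed over the 17 sums of a type and a capture, as Pearson's r of log2(CPM + 1) among 8062 genes with a mean of at least 20 CPM. These points share libraries and differ in depth, so r is a description. Meg3 was most like Faim2 (0.972), Rian (0.964), Lrrc4c (0.957), Rims1 (0.953) and Ptprd (0.942). Mir100hg was most like Rgs6 (0.963), Creb3l2 (0.956), Fgfr1 (0.951), Egfr (0.947) and Slc1a3 (0.944), the last a marker of the MG gate itself. Otx2os1 was most like Cacna2d4 (0.968), a channel subunit of photoreceptors, with Rasgrf2 (0.956), Fhod3 (0.950), Plk5 (0.932) and Syt9 (0.930). Neat1 was most like Trim30a (0.954), Txn1 (0.953), Icam1 (0.951), Piezo1 (0.950) and Axl (0.949). Malat1 had lower values, with Pkn2 and Amn1 (both 0.927), Dennd6a (0.921), Sec62 (0.913) and Gm33989 (0.907).

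Within MG the same measure was taken over 20 sums, 5 quintiles of ribosomal share in 4 captures, among 6931 genes. Mir100hg was most like Gm49470 (0.986), Dtna (0.984) and Mir99ahg (0.981). Meg3 was most like 6720427I07Rik and the splicing factor gene Tra2a (both 0.970), Neat1 most like Glis3 (0.964) and Nlrc5 (0.953), and Malat1 most like Mrtfb and Zcchc7 (both 0.971). Malat1 and Mir100hg had an r of 0.959 with each other, and Malat1 and Meg3 0.929. Among the genes most like Otx2os1 were Rbp3 (0.945), Neurod1 (0.923) and Rp1 (0.919), genes of photoreceptors.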

How the data were processed

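FACS-sorted tdTomato+ cells were profiled by 10x 3′ v3.1 single-cell RNA-seq. Per the labels and the matrix headers, the authors aligned reads to GRCm39 with Cell Ranger (8.0.0 in the processing notes, 9.0.1 in the headers of 2 libraries) and deposited raw UMI counts per gene and cell. Cells with at least 1000 UMIs and at most 15% mitochondrial UMIs were kept. No doublet caller was run. MG were cells with at least 0.5% of UMIs from 5 markers. Other types lay outside that gate with at least 3 marker UMIs and 1% (rods), 0.5% (cones, microglia, endothelium and pericytes), 0.2% (bipolar) or 0.1% (amacrine) of UMIs. The tdTomato row, present in the 8.0.0 libraries, stayed out of totals.

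Counts were summed per capture and cell group, since cells are not replicates. CPM are UMIs per 1000000 of the sum. The 4 captures gave 7833275 to 18588061 MG UMIs. Intervals (95%, Poisson or exact) and the limit of 3 counts cover counting error only. Tests used edgeR 4.0.16 (quasi-likelihood, TMM, filterByExpr) in R 4.3.3 on all genes, with Benjamini-Hochberg adjustment at 0.05 and capture as block for the tertiles. They were also run on simulated counts, with the same dispersion for all genes and no difference between captures or batches. That run therefore does not show how well they recover differences in these captures. Alternatives were DESeq2 1.42.0, no filter, left-out captures, Yap5SA 2 in place of Yap5SA 1, other gates, thinning and, added after the data were seen, Malat1-rich cells only and MG without cells of rod or pigment epithelium markers. The members, gates and gene lists were chosen with earlier results of these data known. Named genes are the members, those of fixed lists and the 5 most correlated with each member, of which some are given. An exact permutation test of 2 against 2 captures was not used, as it cannot go below 0.333. Cells of 1 capture share an animal pool. A lower level in a summed group can mean fewer cells with the RNA or less RNA per cell.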

Additional observations from a re-analysis of the deposited data

Results flagged for a closer look

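Malat1 ran in opposite directions with mitochondrial share in the captures of the 2 processing versions. On the log2(CPM + 1) scale the highest over the lowest mitochondrial tertile was 0.19 and 0.31 with version 8.0.0 and -5.30 and -5.58 with version 9.0.1, a difference in means of 5.69. For Neat1 the values were 0.09 and 0.33 against -5.21 and -3.35, a difference of 4.49. For Mir100hg they were 0.01 and 0.34 against -2.69 and -3.43, a difference of 3.24. These differences were not tested, since each version holds 2 captures and the version cannot be told apart from the captures it was used on. The share of all genes that differ in this way is not given, so the pattern is not shown to be particular to these RNAs. Malat1-rich cells were 79.3% and 83.9% of the highest tertile with version 8.0.0 and 1.92% and 1.94% with version 9.0.1. From the lowest to the highest tertile the median ribosomal share went from 4.96% to 13.6% and from 1.86% to 9.88% with version 9.0.1. With version 8.0.0 it went from 3.66% to 3.89% and from 5.51% to 4.53%. Meg3 had -0.07 and 0.90 against -3.28 and -4.50, so the versions lay as far apart, although mKate2 1 was just below 0. For Otx2os1 the values were 1.26 and -0.16 against -1.45 and -0.63, the former from few UMIs.

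Mir100hg was also counted in cells that met no gate, which enter no comparison. Its level there was 130 and 164 CPM in the Yap5SA captures and 54.5 and 63.2 CPM in the mKate2 captures, so the lower Yap5SA value lay above both controls. The difference was not tested across genes, and the types of these cells are not known. Their median share of MG markers was 0.298% in mKate2 1 and 0.222% in Yap5SA 1. It was 0.0382% in mKate2 2 and 0.0251% in Yap5SA 3, where the median share of rod markers was 0.192%. The makeup thus differed between captures, and its part in the Mir100hg level was not tested.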

How the results depend on the processing

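The count of genes called between immediate-early tertiles was 220, and became 432 with DESeq2, 1015 with no filter on low counts, 25 among Malat1-rich cells alone, and 52 to 487 when a capture was left out. The Neat1 difference was 1.46 to 2.08 on the log2 scale over 9 alternatives, with adjusted p from 3.859e-08 to 0.05362 and under 0.05 in 8 of them. That of Meg3 was 0.88 to 1.41, with adjusted p from 2.794e-07 to 0.1082 and under 0.05 in 6 of them. Between mitochondrial tertiles no gene was called, and 32 were with DESeq2, 20 with no filter, and 0 to 20 when a capture was left out. With the MG gate at 1% of UMIs, 0 members and not 3 were 2-fold higher in the lowest ribosomal tertile of each capture. With cells thinned to 1000 UMIs, the log2 ratio of Meg3 in endothelium over MG became 0.16 and that of Neat1 in cones over MG 0.067. Both changed sign, but the thinned sums held few UMIs and no reversal is read from them. Thinned Meg3 was 41.7 CPM in endothelium, where 4.17% of 24 cells had a UMI, against 55.9 CPM in the MG of mKate2 2. That is too few cells to show either order. Thinned Neat1 was 0 and 20.8 CPM in cones against 24.5 and 15.7 CPM in MG, in no common direction. This thinning moved 12 of the other ratios to MG by more than the spread between captures. For Neat1 the ratio in amacrine cells went from -4.17 to -0.044, in bipolar cells from -3.80 to -0.43 and in rods from -3.36 to -2.74. The thinned Neat1 sums of neurons held few UMIs, with 10.4 and 0 CPM in amacrine cells. These ratios therefore cannot show that neurons came near the MG level. For Mir100hg amacrine cells went from -3.13 to -1.02, bipolar cells from -4.96 to -2.43, cones from -7.60 to -3.10, rods from -6.71 to -4.38 and microglia from -5.65 to -3.63. Thinned Mir100hg was 0 CPM in the cones of both captures, so the cone ratio is not an exact value. For Meg3 amacrine cells came to 5.74, bipolar cells went from 2.75 to 4.19 and rods from -4.81 to -2.67, and for Otx2os1 rods went from 3.97 to 4.53. In the AAV comparison none of the member differences passed the test in any setting with 2 captures per AAV. Miat, counted 0, 0, 22 and 2 times in MG, could not turn, since both mKate2 captures held 0 UMIs. Its difference was 6.66 to 7.84 in the fits with a capture left out that kept it. The fit without Yap5SA 1, the capture with the 22 UMIs, did not keep it. Each of the other 5 members turned its direction when some capture was left out. The ranges were -0.72 to 0.72 for Malat1, -0.76 to 1.35 for Neat1, -0.35 to 0.22 for Meg3, -0.070 to 0.62 for Mir100hg and -5.25 to 2.68 for Otx2os1. Neat1 also turned to 0.26 with the processing batch term and 0.077 in the lowest ribosomal tertile alone, Malat1 to 0.023 in that tertile, and Meg3 to 0.033 without cells of rod or pigment epithelium markers and 0.10 among Malat1-rich cells. Between immediate-early tertiles Mir100hg turned to -0.33 among Malat1-rich cells, and Otx2os1 ran from -1.26 to 0.26 when a capture was left out. Between mitochondrial tertiles Otx2os1 ran from -0.65 to 0.30 when a capture was left out, and turned to 0.18 with cells thinned to 2000 UMIs and 3.44 among Malat1-rich cells. None of these turned values passed the test. The cause was not tested for any of these. Of all values for members under an alternative, 307 kept their direction and their side of the threshold or stayed within the spread between captures, 23 turned their direction, 4 no longer passed and 19 moved by more than that spread. No gene was called between the AAV groups under any alternative run. By replicate number no paired analysis was possible because the captures used share only number 1. Paired by processing batch, which holds 1 capture of each AAV, the AAV comparison called no gene. A level of 3 UMIs came to between 0.161 and 0.383 CPM in the MG sums and to 15.4 CPM in the endothelial sum, so levels of the low members were less precise outside MG.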
